A study of Mus musculus with 24 samples.

Results

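Interferons are secreted signals of innate immunity. Type I interferons bind a receptor made of Ifnar1 and Ifnar2, and the kinases on that receptor activate a complex that holds Stat2 and Irf9 and binds an interferon-stimulated response element (ISRE) in the promoters of its target genes. Interferon gamma acts at a different element, the gamma-activated site (GAS). The induced genes encode nucleic acid sensors, proteins that bind or cut viral RNA, GTPases, enzymes that attach the ubiquitin-like protein Isg15, and the machinery that shows peptides on MHC class I. In the heart, resident and recruited macrophages, endothelial cells, fibroblasts and cardiomyocytes can all express such genes.

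The 39 genes described here are interferon response genes, taken from a list of symbols with no threshold on their values in these hearts. The list was nevertheless chosen with earlier results of these data known. Its counts set against all genes, here and for the further lists below, are therefore descriptions and not independent tests. All 39 were matched to an Ensembl identifier among the 43432 identifiers of the deposited count table. By role they comprise 4 transcription factors, 4 nucleic acid sensors, 8 RNA-binding or RNA-acting effectors, 7 membrane-acting effectors and large GTPases, 6 enzymes of the ubiquitin, Isg15 and ADP-ribose systems, 6 other induced proteins, and 4 components of MHC class I and its peptide supply.

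RNA was measured in hearts of C57BL/6 mice, in 24 libraries of total RNA depleted of ribosomal RNA, 4 per group. The groups were mice after 8 weeks of running (Running) beside sedentary mice (Sedentary), mice 2 weeks after transverse aortic constriction (TAC-LVH) beside their shams (Sham-LVH), and mice 8 weeks after TAC (TAC-HF) beside their shams (Sham-HF). In TAC a band narrows the aortic arch, so that the left ventricle ejects against a raised pressure. LVH and HF are the names the labels give to the 2-week and 8-week experiments, and the labels do not spell them out. The labels give no genetic change for any group, and no time after surgery for the sham groups. They do not state whether each library came from a separate animal, so p-values measure only the spread between these libraries.

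Libraries held 16802939 to 39512101 estimated counts, of which mitochondrial genes took 50.7% to 73.6%, and the 39 genes together took 3779 to 14847 counts per library. Levels below are CPM, counts per 1000000 counts of the library, scaled by trimmed-mean normalization (TMM) factors over the 24 libraries. Cardiomyocyte markers were high in every library, with the myosin heavy chain Myh6 at 4930 to 13000 CPM. The share of mitochondrial counts differed between groups: it was 50.7% to 58.4% in TAC-LVH and 59.8% to 64.5% in Sham-LVH, and 52.7% to 57.6% in TAC-HF and 61.3% to 67% in Sham-HF. With mitochondrial genes left out, the number of the 39 genes called was the same in all 9 comparisons described here.

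Promoter sequences are shown because the ISRE is an element through which many interferon response genes are known to be induced. RefSeq windows from 250 bases before to 50 bases after the start site (build GRCm38.p6) were found for 28 of the 39 genes, in 32 windows. The ISRE core was searched as GAAA, any 2 bases and GAAA again, on both strands, and 14 of the 32 windows held it, which is 43.8%, against 3.44% of 32851 mouse promoter windows of the same length. The GAS core, TTC, any 3 bases and GAA, on both strands, was in 8 of the 32 windows, or 25%, against 8.3% of all windows. Below are stretches of the 6 promoters with an ISRE match whose genes had the smallest p-values 2 weeks after TAC, each 5′ to 3′ on the strand of the gene, with the ISRE match in capitals. A match that opens with TTTC is the same element read from the other strand, and in Bst2 a pair of matches overlap.
Ifit3 (chr19:34583373-34583441, plus strand): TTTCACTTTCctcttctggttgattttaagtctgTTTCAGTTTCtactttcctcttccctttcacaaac
B2m (chr2:122147523-122147582, plus strand): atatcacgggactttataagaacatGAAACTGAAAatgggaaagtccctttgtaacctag
Bst2 (chr8:71537562-71537621, minus strand): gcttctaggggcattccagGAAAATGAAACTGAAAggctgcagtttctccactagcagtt
Ifih1 (chr2:62646206-62646233, minus strand): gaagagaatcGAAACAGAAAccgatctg
Eif2ak2 (chr17:78882535-78882564, minus strand): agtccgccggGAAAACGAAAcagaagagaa
Ddx58 (chr4:40239804-40239833, minus strand): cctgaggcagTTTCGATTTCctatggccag
The match nearest the start site lay 122 bases before it in Ifit3, 139 in B2m and 124 in Bst2. In Ifih1, Eif2ak2 and Ddx58 the match lay just after the start site. A match is only a run of letters, and binding was not measured.

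At 2 weeks after TAC, most interferon response genes were higher than in sham hearts. In TAC-LVH against Sham-LVH, 28 of the 39 rose and 0 fell (edgeR quasi-likelihood test, adjusted p under 0.05 over 14224 genes), where 17.1% of all genes tested rose and 16.1% fell. The estimate was above 0 for all 39 genes, with a median log2 fold change of 0.52, against -0.00206 over all genes tested. In 27 genes every TAC-LVH library lay above every Sham-LVH library, a pattern found in 16.5% of genes tested, and in 0 genes every one lay below, against 16.3% of genes tested. By DESeq2, 26 rose and 0 fell.

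**Figure D1:**
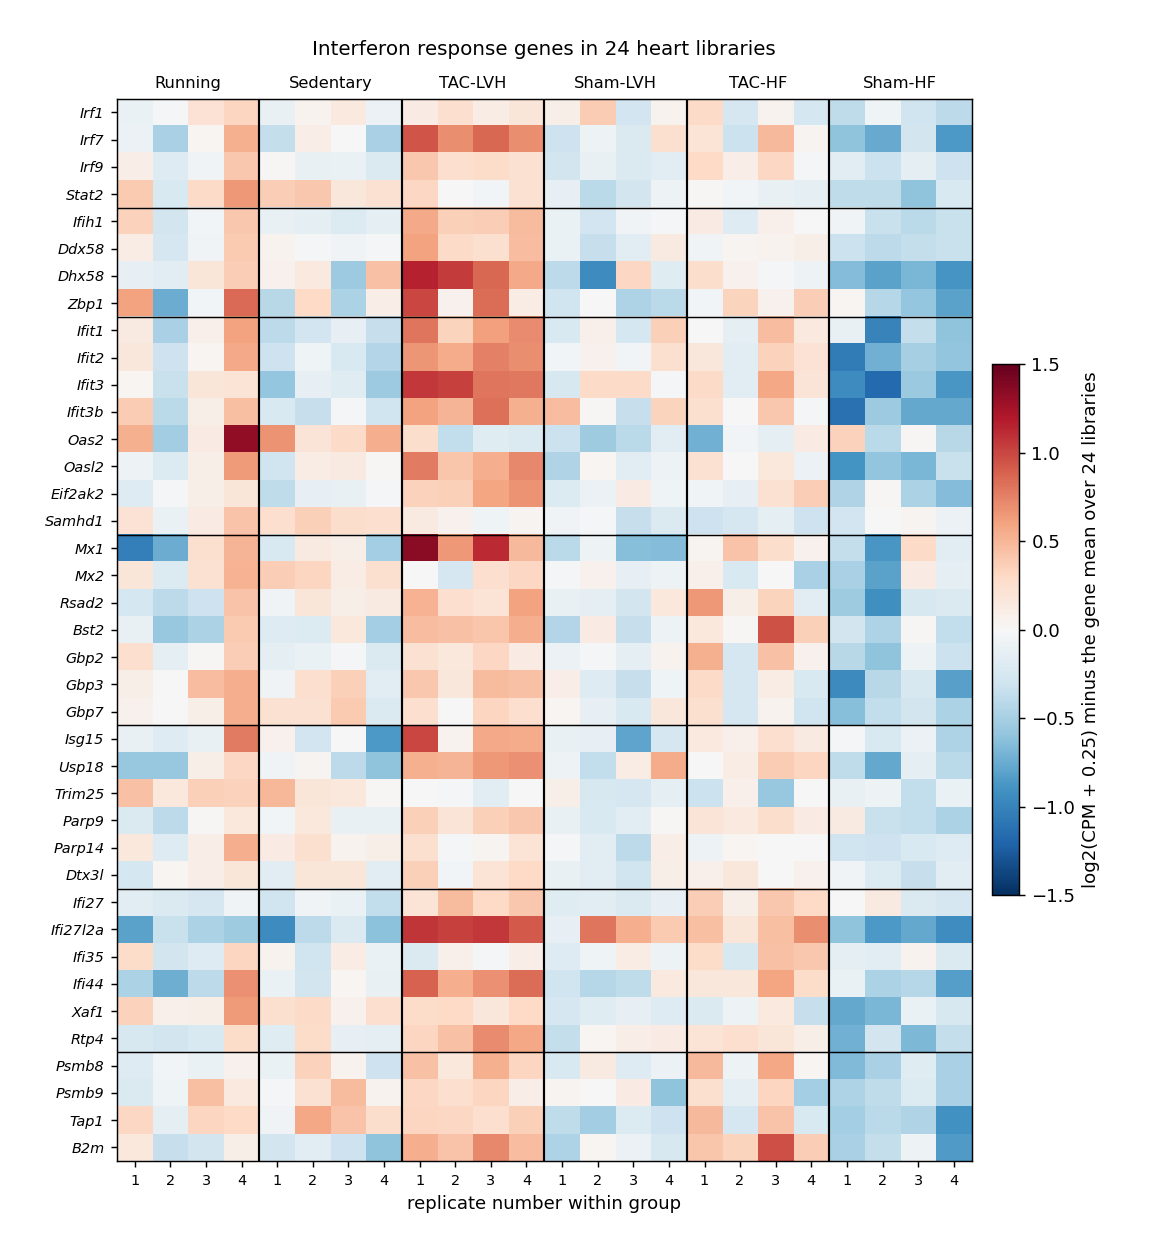
Level of each of the 39 genes in each of the 24 libraries, as log2(CPM + 0.25) minus the mean of the gene over all libraries. Columns are libraries by group and replicate number, black lines separate groups and roles, and red is above and blue below the gene's mean; the TAC-LVH columns are red for most genes and the Sham-HF columns blue.

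Of the transcription factors, 3 of 4 rose at 2 weeks. Irf7, which amplifies the type I response and is itself induced by interferon, was at 7.52, 6.28, 7.08 and 6.28 CPM in TAC-LVH libraries, against 3.01, 3.57, 3.23 and 4.53 CPM in Sham-LVH libraries. The groups did not overlap, and Irf7 rose by 0.92 ± 0.14 (log2 fold change ± SE, n = 4 each; edgeR adjusted p = 0.000249). Irf9, the DNA-binding part of the type I complex, was at 10.4, 9.34, 9.49 and 9.24 CPM in TAC-LVH, against 6.44, 7.2, 6.69 and 6.99 CPM in Sham-LVH. It too was higher in every TAC-LVH library, with a log2 fold change of 0.50 ± 0.09. Stat2, the partner of Irf9, was at 9.08, 7.26, 7.04 and 8.54 CPM in TAC-LVH, against 6.66, 5.41, 5.95 and 6.85 CPM in Sham-LVH. Stat2 also separated the groups, but by a narrow margin, and the log2 fold change was 0.36 ± 0.12 (edgeR adjusted p = 0.0312), and its adjusted p was 0.0503 by DESeq2 and 0.0951 without TAC-LVH replicate 1. Irf1, a factor best known as a target of interferon gamma, was at 10.2, 11.2, 10.1 and 10.6 CPM in TAC-LVH, against 9.95, 12.2, 7.61 and 9.66 CPM in Sham-LVH. The TAC-LVH values of Irf1 lay inside the range of the sham values, and it did not pass the test.

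All 4 nucleic acid sensors rose at 2 weeks. The log2 fold changes were 0.57 for Ifih1 and 0.52 for Ddx58, which detect double-stranded and uncapped RNA in the cytoplasm, 1.37 for Dhx58, a regulator of both, and 1.25 for Zbp1, which binds Z-form nucleic acids and can start necroptosis. Dhx58 and Zbp1 were low genes, with 49 to 65 and 14 to 36 counts per TAC-LVH library, against 6 to 31 and 8 to 10 counts per Sham-LVH library. Without TAC-LVH replicate 1, the adjusted p of Zbp1 was 0.0589.

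Among the RNA-binding and RNA-acting effectors 5 of 8 rose. Ifit3, of a family that recognises RNA lacking the marks of host transcripts, was at 10.9, 10.7, 9.12 and 9.04 CPM in TAC-LVH, against 4.29, 6.31, 6.28 and 4.99 CPM in Sham-LVH. Every TAC-LVH library was above every sham library, and Ifit3 rose by 0.88 ± 0.13 (edgeR adjusted p = 0.000262). Ifit2, its family partner, was at 11.8, 10.9, 12.6 and 12.1 CPM in TAC-LVH, against 7.12, 7.7, 7.16 and 8.75 CPM in Sham-LVH. Its groups also stood apart, and the log2 fold change was 0.63 ± 0.10 (edgeR adjusted p = 0.000367). Ifit1 (0.66), Oasl2 (0.84), a homologue of the oligoadenylate synthetases, and Eif2ak2 (0.58), the kinase PKR that halts translation, rose as well. Ifit3b, Oas2 and Samhd1, a dNTP hydrolase, had log2 estimates of 0.52, 0.25 and 0.21 and did not pass. Ifit3 and Ifit3b share sequence: 61.8% of the 31-base words of Ifit3 transcripts and 55.2% of those of Ifit3b also occur in transcripts of other genes, nearly all of them in the other member of the pair, so that reads could be split between them and their separate values are uncertain.

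Of the membrane-acting effectors and large GTPases 5 of 7 rose, led by Mx1, a dynamin-like antiviral GTPase, with a log2 fold change of 2.21 on 19 to 38 counts per TAC-LVH library, against 4 to 6 counts per Sham-LVH library. Rsad2, known as viperin, rose by 0.51 on the log2 scale, Bst2, the tetherin that holds budding virions at the membrane, by 0.69, and the guanylate-binding proteins Gbp3 and Gbp2 by 0.52 and 0.26. Mx2 and Gbp7 had log2 estimates of 0.18 and 0.25 and did not pass. In the ubiquitin, Isg15 and ADP-ribose group 3 of 6 rose: Isg15 by 1.162, Parp9 by 0.46 and Dtx3l, the ubiquitin ligase that partners Parp9, by 0.34. Usp18, which removes Isg15 and dampens the receptor, had a log2 estimate of 0.54 with an edgeR adjusted p of 0.0561, and Parp14 and Trim25 did not pass either. Parp9 and Dtx3l overlap on opposite strands, as do Psmb9 and Tap1, and the strand setting of the counting is not given in the sources used here. Other genes overlap 16.8% of the exonic length of Ifi35, 14.7% of Psmb8, 13.9% of Rtp4 and 11.3% of Gbp7. Reads of all these genes may not be fully separated.

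Of the other induced proteins 5 of 6 rose. Ifi44 was at 5.12, 3.97, 4.42 and 4.94 CPM in TAC-LVH, against 2.11, 1.9, 1.98 and 2.95 CPM in Sham-LVH. It did not overlap between the groups and rose by 1.04 ± 0.16 on the log2 scale (edgeR adjusted p = 0.000289). Ifi27l2a (0.62), Ifi27 (0.55), Rtp4 (0.59) and Xaf1 (0.49) also rose, while Ifi35 had a log2 estimate of 0.05. Of the MHC class I genes 3 of 4 rose. B2m, the invariant light chain of MHC class I, was at 105, 97, 119 and 99.3 CPM in TAC-LVH, against 52.1, 73.7, 67.7 and 60.8 CPM in Sham-LVH. No library crossed over, and the log2 fold change was 0.73 ± 0.12 (edgeR adjusted p = 0.000333). Tap1, a subunit of the transporter that carries peptides to MHC class I, was at 6.79, 6.73, 6.42 and 6.95 CPM in TAC-LVH, against 4.08, 3.68, 4.63 and 4.29 CPM in Sham-LVH. It separated the groups, and the log2 fold change was 0.69 ± 0.11 (edgeR adjusted p = 0.000352). The immunoproteasome subunit Psmb8 rose by 0.49 on the log2 scale and its partner Psmb9, with an estimate of 0.38, did not pass.

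**Figure D2:**
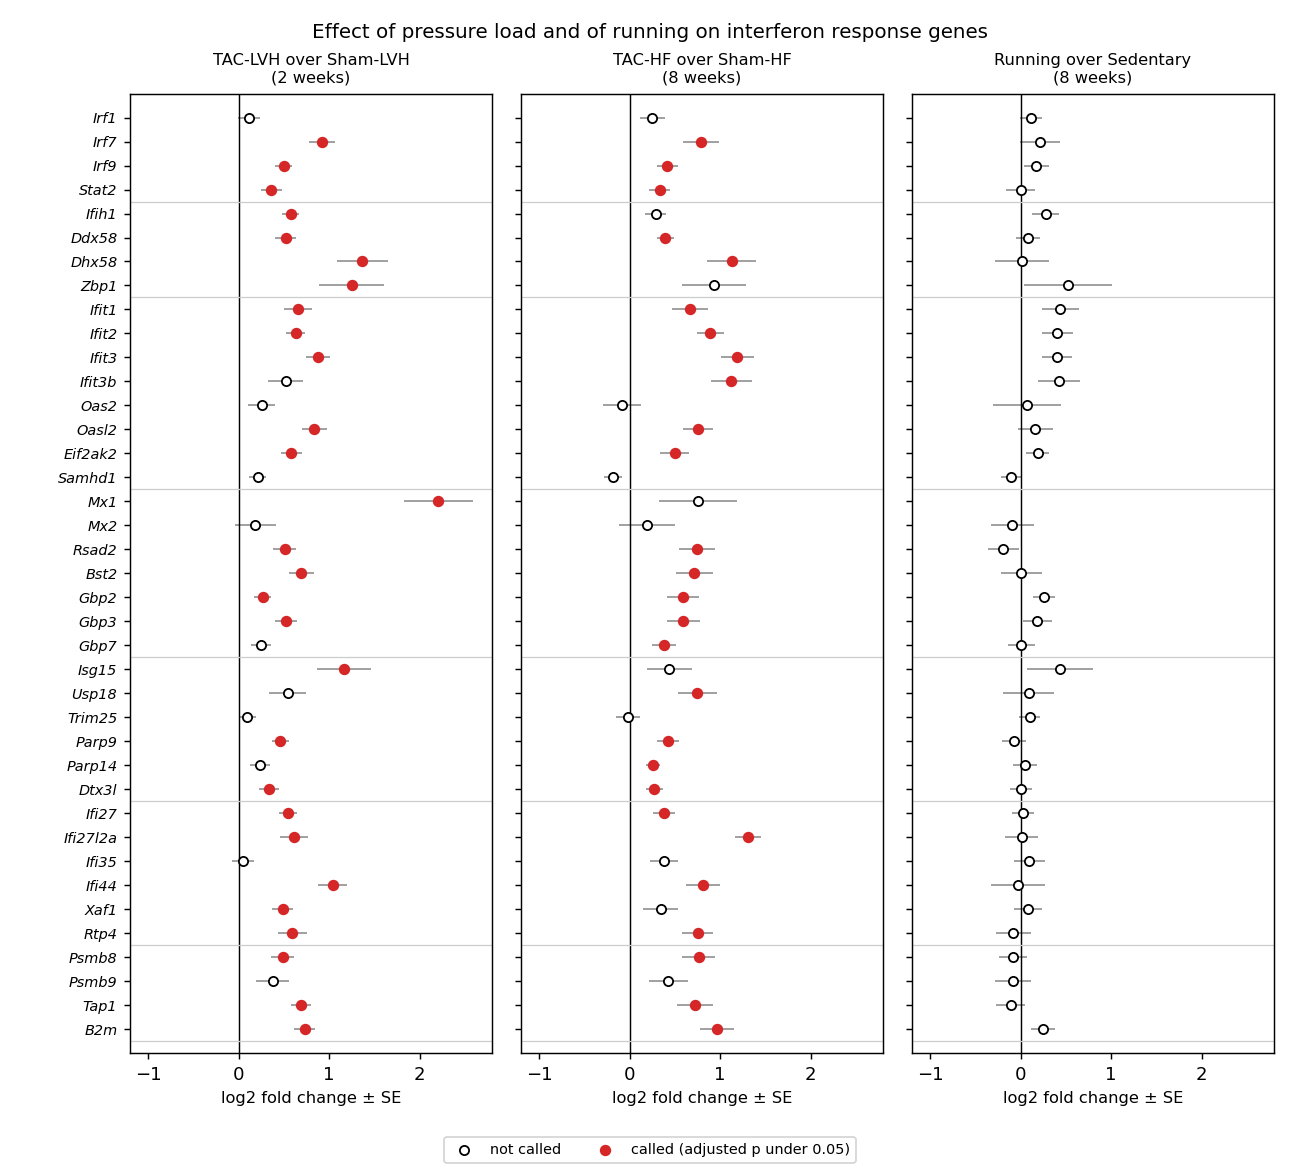
Log2 fold change with its standard error (edgeR, n = 4 libraries per group) for each of the 39 genes in TAC-LVH over Sham-LVH, TAC-HF over Sham-HF and Running over Sedentary. Filled red points passed an adjusted p of 0.05 over all genes tested and open points did not; most points of both TAC panels lie right of 0, and no point is filled in the running panel, where Mx1 was not tested.

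Markers of other cells moved with TAC as well, at 2 weeks beside 17.1% of all genes that rose and 16.1% that fell. The summed level of 16 macrophage and monocyte markers was 332 ± 41.4 CPM in TAC-LVH, with a range of 289 to 386, against 202 ± 37 CPM and a range of 148 to 230 in Sham-LVH (SD, n = 4 each), and 13 of the 16 rose. Ccr2, a receptor of recruited monocytes, had a log2 fold change of 1.83. Of 9 fibroblast markers 8 rose, with a summed 2400 ± 261 CPM in TAC-LVH and 1060 ± 138 CPM in Sham-LVH, and 8 of 10 cardiomyocyte markers fell. Of 10 endothelial markers 5 rose, with sums of 714 ± 34.2 CPM in TAC-LVH and 634 ± 30.1 CPM in Sham-LVH, and of 8 smooth muscle and pericyte markers 4 rose and 1 fell. In bulk tissue, fewer cells of a type and less RNA per cell cannot be told apart, and the part of these markers in the interferon response genes was not tested. T and NK lymphocyte markers summed to at most 1.88 CPM in any library.

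At 8 weeks after TAC, a similar number of the genes was higher than in the sham group of that experiment. In TAC-HF against Sham-HF, 27 of the 39 rose and 0 fell (edgeR), where 14.9% of 13621 genes tested rose and 14.7% fell, and by DESeq2 25 rose. The estimate was above 0 for 36 of the 39, with a median log2 fold change of 0.588, against 0.00345 over all genes tested. The TAC-HF and Sham-HF libraries did not overlap in 19 genes, all of them higher in TAC-HF, where 14.9% of genes tested had this pattern upward and 14.6% downward. The count of calls depended on the libraries: without Sham-HF replicate 4 it was 17, and 13 of the 27 passed in each of the 8 fits that left out a library and in each of 7 other settings. Those 13 were Irf7, Irf9, Ddx58, Dhx58, Ifit2, Ifit3, Ifit3b, Oasl2, Ifi27l2a, Ifi44, Rtp4, Psmb8 and B2m.

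The smallest p-value at 8 weeks was that of Ifi27l2a, a small interferon-induced protein. Its level was 7.09, 5.83, 7.06 and 8.47 CPM in TAC-HF, against 3.29, 2.7, 2.9 and 2.57 CPM in Sham-HF. The lowest TAC-HF library was well above the highest Sham-HF library, with a log2 fold change of 1.31 ± 0.14 (n = 4 each; edgeR adjusted p = 2.12e-05). Ifit3 was at 6.32, 4.56, 7.75 and 5.87 CPM in TAC-HF, against 2.55, 2.14, 3.4 and 2.69 CPM in Sham-HF. It rose by 1.188 ± 0.18 on the log2 scale (edgeR adjusted p = 0.000308), with no overlap. Ifit2 was at 8.34, 6.49, 9.39 and 8.58 CPM in TAC-HF, against 3.43, 4.36, 5.14 and 4.79 CPM in Sham-HF. All TAC-HF libraries were above all Sham-HF libraries, and the log2 fold change was 0.89 ± 0.15 (edgeR adjusted p = 0.000559). Ifit3b, the near copy of Ifit3, was at 2.06, 1.7, 2.34 and 1.67 CPM in TAC-HF, against 0.649, 1.09, 0.899 and 0.898 CPM in Sham-HF. It rose by 1.124 ± 0.22 on the log2 scale without overlap. Oasl2 was at 4.46, 3.75, 4.23 and 3.52 CPM in TAC-HF, against 1.9, 2.4, 2.25 and 2.93 CPM in Sham-HF. The groups did not overlap, and the log2 fold change was 0.76 ± 0.16. B2m was at 96.4, 90.7, 141 and 92.8 CPM in TAC-HF, against 51.4, 56.1, 68.2 and 39.9 CPM in Sham-HF. B2m rose by 0.96 ± 0.19, and TAC-HF replicate 3 stood above the other TAC-HF libraries.

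Among the transcription factors at 8 weeks, Irf7 was at 4.41, 2.97, 5.41 and 3.92 CPM in TAC-HF, against 2.41, 2.14, 3.1 and 1.98 CPM in Sham-HF. It rose by 0.79 ± 0.20, although the lowest TAC-HF library was below the highest sham library. Irf9 was at 9.68, 8.38, 9.72 and 7.72 CPM in TAC-HF, against 6.96, 6.23, 7.04 and 6.28 CPM in Sham-HF. Its groups did not overlap, and it rose by 0.42 ± 0.11. Stat2 was at 7.33, 7.07, 6.69 and 6.51 CPM in TAC-HF, against 5.52, 5.54, 4.69 and 6.16 CPM in Sham-HF. Stat2 rose by 0.33 ± 0.11 without overlap, but passed in 1 of the 8 fits that left out a library, with an adjusted p of 0.139 without Sham-HF replicate 3. Irf1 was at 11.5, 7.8, 9.68 and 7.76 CPM in TAC-HF, against 7.14, 8.94, 7.54 and 7.06 CPM in Sham-HF. These ranges overlapped and Irf1 did not pass.

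By role, 3 of 4 transcription factors, 2 of 4 sensors, 6 of 8 RNA-binding or RNA-acting effectors, 5 of 7 membrane-acting effectors and GTPases, 4 of 6 enzymes of the Isg15 and ADP-ribose systems, 4 of 6 other induced proteins and 3 of 4 MHC class I genes rose at 8 weeks. Genes that did not pass included Mx1 and Isg15, with log2 estimates of 0.75 and 0.44, and Oas2, Samhd1 and Trim25, with estimates of -0.08, -0.18 and -0.02. Macrophage and monocyte markers summed to 234 ± 39.3 CPM in TAC-HF, with a range of 188 to 283, against 141 ± 24.2 CPM and a range of 115 to 172 in Sham-HF, and 12 of 16 rose. Fibroblast markers summed to 1640 ± 187 CPM in TAC-HF and 955 ± 119 CPM in Sham-HF, and 0 of 10 endothelial markers passed. Over all genes 14.9% rose and 14.7% fell at 8 weeks, and the part of these markers was not tested at that time either.

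The calls at the 2 times were largely of the same genes. Most of the 39 were called at each time, so that a large overlap follows from the counts alone. The shares of calls below are therefore not comparable with those over all genes. In all, 23 genes rose at both, which is 82.1% of the 2-week calls and 85.2% of the 8-week calls, and over all genes 1191 rose at both, or 49.1% and 58.6%. These were Irf7, Irf9, Stat2, Ddx58, Dhx58, Ifit1, Ifit2, Ifit3, Oasl2, Eif2ak2, Rsad2, Bst2, Gbp2, Gbp3, Parp9, Dtx3l, Ifi27, Ifi27l2a, Ifi44, Rtp4, Psmb8, Tap1 and B2m. Ifih1, Zbp1, Mx1, Isg15 and Xaf1 passed at 2 weeks alone, Ifit3b, Gbp7, Usp18 and Parp14 at 8 weeks alone, and Irf1, Oas2, Samhd1, Mx2, Trim25, Ifi35 and Psmb9 at neither. The difference between the TAC effects was tested directly, as the TAC-HF over Sham-HF change minus the TAC-LVH over Sham-LVH change. It passed for 0 of the 39 genes by edgeR and for 0 by DESeq2, where 0.719% of 14735 genes passed upward and 0.366% downward. At an unadjusted p under 0.05 there were 2, or 5.13%, against 18.3% of all genes. These were Ifi27l2a with a difference of 0.70 ± 0.23 on the log2 scale (edgeR adjusted p = 0.115) and Samhd1 with -0.39 ± 0.14 (edgeR adjusted p = 0.142). Without Sham-LVH replicate 1, the lowest of its group for Ifi27l2a, 1 gene passed, which was Ifi27l2a. The error of the difference was wide for low genes: for Mx1 the difference was -1.45 ± 0.71, so that a p above the threshold does not show equal effects.

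Promoters can be set beside these calls. Of the 14 genes with an ISRE match in their window, 12 rose at 2 weeks and 12 at 8 weeks, and of the 14 with a window but no match, 9 rose at 2 weeks and 8 at 8 weeks. Genes with a match that did not rise at 2 weeks were Ifit3b and Gbp7. Irf7, Ifit2, Tap1 and Ifi44 are among those that rose without this exact core in the window. For the GAS core, 4 of 8 genes with a match and 17 of 20 without rose at 2 weeks, and 5 of 8 with a match and 15 of 20 without at 8 weeks. Over all genes tested 17.1% rose at 2 weeks and 14.9% at 8 weeks, and these shares were not split by promoter match. No test was made of these counts, and absence of the letters says nothing on binding elsewhere.

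Running did not change any of the genes by the test. In Running against Sedentary, 38 of the 39 had enough counts to test (Mx1 did not), and 0 passed in edgeR, where 0% of 13824 genes rose and 0% fell, with 665 genes and 2 of the 38 at an unadjusted p under 0.05. DESeq2 called 0 of the genes too, and 3 higher and 4 lower among all genes. The 2 genes were Ifit3 and Ifit2. Ifit3 was at 5.23, 4.01, 5.85 and 5.92 CPM in Running, against 3.35, 4.66, 4.49 and 3.42 CPM in Sedentary, a log2 estimate of 0.40 ± 0.17. Ifit2 was at 8.31, 5.9, 7.52 and 11 CPM in Running, against 5.87, 7.04, 6.27 and 5.38 CPM in Sedentary, an estimate of 0.41 ± 0.17. The groups overlapped for both, as they did for all 39 genes, where 1.47% of genes tested did not overlap upward and 1.48% downward.

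The transcription factors also overlapped between the running and sedentary groups. Irf7 was at 3.56, 2.63, 3.86 and 5.6 CPM in Running, against 2.89, 4.09, 3.8 and 2.63 CPM in Sedentary. Irf9 was at 8.42, 6.8, 7.56 and 10.4 CPM in Running, against 7.9, 7.23, 7.31 and 6.72 CPM in Sedentary. Stat2 was at 9.62, 6.17, 8.88 and 11.5 CPM in Running, against 9.47, 9.66, 8.23 and 8.55 CPM in Sedentary. For all of these, replicate 4 was the highest and replicate 2 the lowest running library. Irf1 was at 8.68, 9.2, 10.9 and 11.7 CPM in Running, against 8.64, 9.7, 10.4 and 8.74 CPM in Sedentary.

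The spread within the running group was shared by nearly the whole list. Running replicate 4 was the highest of its group in 34 of the 39 genes, or 87.2%, against 26.6% of all genes, and replicate 2 the lowest in 30, or 76.9%, against 29% of all genes. Replicate 4 had the largest share of mitochondrial counts of any library, 73.6%. The median log2 estimate of the list was 0.0822 over Sedentary, and -0.052 without Running replicate 4 and 0.161 without Running replicate 2, so that its sign depended on 1 library. Macrophage markers summed to 142 ± 12.8 CPM in Running and 141 ± 9.92 CPM in Sedentary.

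**Figure D3:**
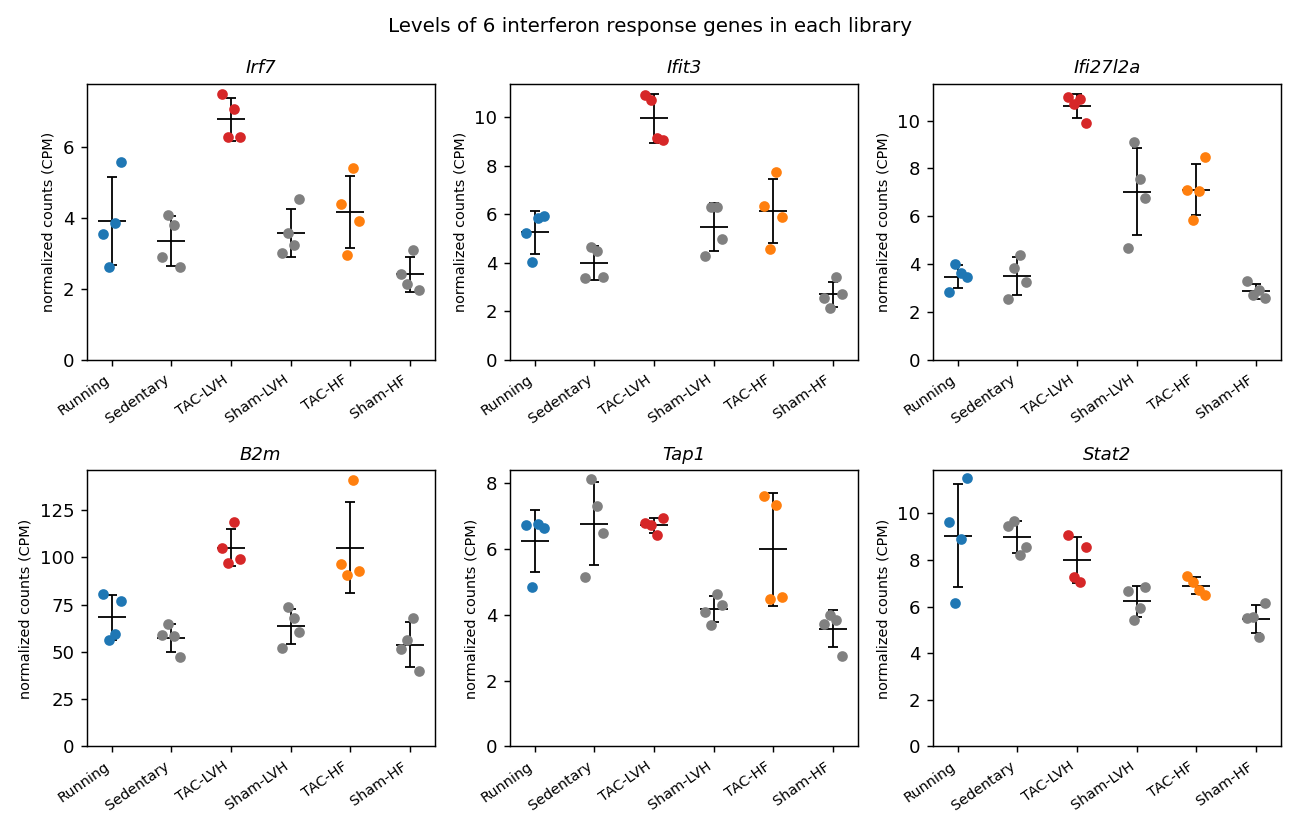
CPM of Irf7, Ifit3, Ifi27l2a, B2m, Tap1 and Stat2 in each library (points) with the group mean and SD (bars, n = 4), linear axes from 0. All TAC-LVH points lie above the Sham-LVH points in these 6 genes, and the control groups differ among themselves, most for Ifi27l2a, at 7.03 CPM on average in Sham-LVH and 2.87 CPM in Sham-HF.

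The TAC and running effects were also compared directly, as the difference of their log2 fold changes. The 2-week TAC effect exceeded the running effect in 8 genes, and fell short of it in 0, where 9.98% of all genes passed upward and 10.3% downward. The 8 were Dhx58, Tap1, Ifi27, Ifi44, Parp9, Mx1, Rtp4 and Oasl2. The smallest p-value was that of Dhx58, with 65, 55, 49 and 51 counts in TAC-LVH against 17, 6, 31 and 21 counts in Sham-LVH, and 15, 19, 26 and 23 counts in Running against 30, 21, 9 and 21 counts in Sedentary, before scaling for depth. The TAC libraries stood apart from their shams and the running libraries did not, with a difference of 1.35 ± 0.38 (edgeR adjusted p = 0.0121). Tap1 differed by 0.79 ± 0.23, Ifi27 by 0.51 ± 0.15 and Ifi44 by 1.07 ± 0.33. Tap1 was at 6.74, 4.84, 6.77 and 6.65 CPM in Running, against 5.17, 8.13, 7.31 and 6.48 CPM in Sedentary. Ifi44 was at 1.83, 1.49, 1.95 and 4.4 CPM in Running, against 2.46, 2.14, 2.7 and 2.44 CPM in Sedentary, so that 3 of the 4 running libraries were below every sedentary library and replicate 4 above them all. Ifi27, a protein of intracellular membranes, was at 7.93, 9.61, 8.5 and 9.13 CPM in TAC-LVH against 5.98, 6.08, 5.84 and 6.29 CPM in Sham-LVH, and at 6.06, 5.86, 5.69 and 6.6 CPM in Running against 5.5, 6.61, 6.39 and 5.25 CPM in Sedentary. The count of 8 became 3 without Running replicate 2, 4 without Sedentary replicate 2, 5 without TAC-LVH replicate 4 and 14 without Running replicate 4. Dhx58 and Tap1 passed in each of these fits and in each of 7 other settings.

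The 8-week TAC effect exceeded the same running effect in 7 genes, and fell short of it in 0, where 5.52% of all genes passed upward and 5.73% downward. The 7 were Ifi27l2a, Psmb8, Rsad2, Tap1, Rtp4, B2m and Ifit3. Both comparisons share the running and sedentary libraries. Ifi27l2a was at 2.82, 4.01, 3.62 and 3.45 CPM in Running, against 2.55, 3.85, 4.37 and 3.24 CPM in Sedentary, and the difference of effects was 1.29 ± 0.25 (edgeR adjusted p = 0.00128). Psmb8 was at 6.23, 4.13, 6.69 and 4.48 CPM in TAC-HF against 2.69, 3.05, 3.85 and 3.05 CPM in Sham-HF, and at 3.82, 4.25, 4.06 and 4.61 CPM in Running against 4.06, 5.66, 4.55 and 3.48 CPM in Sedentary. Its TAC groups did not overlap and its running groups did, with a difference of 0.85 ± 0.23. Rsad2 was at 14.9, 9.96, 11.9 and 8.4 CPM in TAC-HF against 6.4, 4.84, 7.89 and 8.02 CPM in Sham-HF, and at 7.79, 7.08, 7.52 and 12.7 CPM in Running against 9.01, 10.7, 10 and 10.3 CPM in Sedentary. Its difference was 0.93 ± 0.26, and that of Tap1, at 7.62, 4.48, 7.34 and 4.56 CPM in TAC-HF against 3.71, 4.01, 3.85 and 2.75 CPM in Sham-HF, was 0.84 ± 0.24. Ifi27l2a and Psmb8 passed in each fit that left out a library and each other setting, while the count of 7 became 12 without Running replicate 4, 3 without Sedentary replicate 2, and 4 without Running replicate 2, TAC-HF replicate 1 or 3, or Sham-HF replicate 2 or 4.

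The 3 control groups did not have the same levels. Sham-HF had the lowest group mean of the 6 groups in 33 of the 39 genes, or 84.6%, against 13.7% of all genes, and TAC-LVH had the highest in 28, or 71.8%, against 25.3% of all genes. In Sham-HF against Sham-LVH, 4 genes fell and 0 rose, where 2.04% of 14735 genes fell and 3.01% rose, and 18 of the 39, or 46.2%, were at an unadjusted p under 0.05, against 22% of all genes. DESeq2 also called 4 of the 39 lower and 0 higher. In 5 genes every Sham-HF library was below every Sham-LVH library and in 0 above, against 5.44% and 6.89% of all genes. Ifi27l2a was at 3.29, 2.7, 2.9 and 2.57 CPM in Sham-HF, against 4.69, 9.1, 7.57 and 6.78 CPM in Sham-LVH, a log2 change of -1.28 ± 0.17 without overlap (edgeR adjusted p = 0.000612). Ifit3, with a log2 fold change of -1.02 ± 0.18, and Ifit2, with -0.80 ± 0.16, were also lower in every Sham-HF library than in any Sham-LVH library, on the values given above. Ifit3b was at 0.649, 1.09, 0.899 and 0.898 CPM in Sham-HF, against 2.43, 1.73, 1.29 and 2.21 CPM in Sham-LVH, a log2 fold change of -1.117 ± 0.23, also without overlap. Of 16 macrophage and monocyte markers, 6 were lower in Sham-HF than in Sham-LVH, with summed levels of 141 ± 24.2 CPM and 202 ± 37 CPM, and their part in the difference was not tested.

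**Figure D4:**
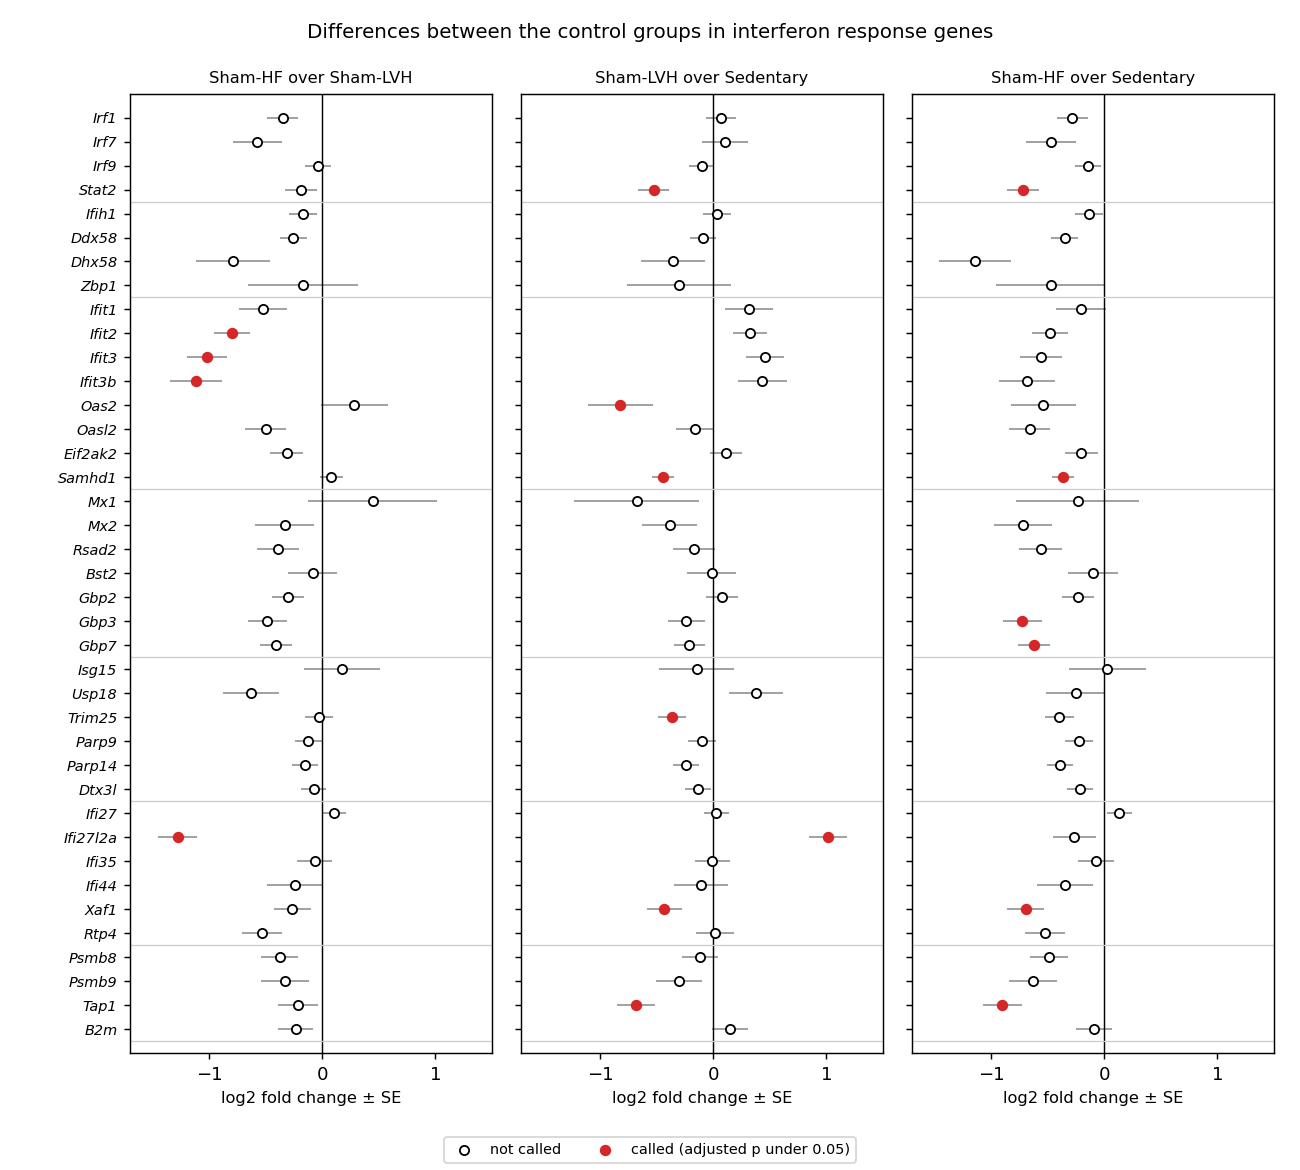
Log2 fold change with its standard error (edgeR, n = 4 libraries per group) between control groups for each of the 39 genes: Sham-HF over Sham-LVH, Sham-LVH over Sedentary and Sham-HF over Sedentary. Filled red points passed an adjusted p of 0.05 over all genes tested; Ifi27l2a is filled left of 0 in the left panel and right of 0 in the middle panel.

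Because the Sham-HF libraries enter both this comparison and the 8-week TAC effect, a low value in Sham-HF enters both. Set beside the other sham group, all 4 TAC-HF libraries lay above every Sham-LVH library in 7 of the 39 genes, near the 12.5% of all genes with this pattern, so that nothing about the list follows from it. The 7 were Irf9, Mx1, Isg15, Parp9, Ifi27, Ifi44 and B2m. In the other 32 at least 1 TAC-HF library was within or below the Sham-LVH range, and for Ifi27l2a all 4 were within it. In the same way, a high value in Sham-LVH enters the comparison of the shams and the 2-week TAC effect. Mean Ifi27l2a was 7.03 CPM in Sham-LVH, 2.87 CPM in Sham-HF and 3.5 CPM in Sedentary. Its log2 estimate in Sham-HF over Sedentary, -0.26, did not pass. The sham groups belong to experiments of different length after surgery, so that cohort and time cannot be told apart.

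The sham groups were also set against the sedentary group. The sedentary libraries belong to another experiment, with its own run of library numbers. In both of these comparisons surgery, cohort and library order therefore cannot be told apart. In Sham-LVH, 1 gene was higher than in Sedentary, where 11.9% of all genes were, and 6 were lower, where 11.3% were, so that the number called was not far from that over all genes. Groups did not overlap in 2 genes upward and 6 downward, against 11.6% and 11% of all genes. Ifi27l2a was the gene that was higher, and the log2 fold change was 1.01 ± 0.17 (edgeR adjusted p = 0.000545). Samhd1 was at 12.9, 13.1, 10.5 and 11.5 CPM in Sham-LVH, against 16, 17.2, 16.1 and 16 CPM in Sedentary, with no overlap and a log2 fold change of -0.45 ± 0.10. Tap1 (-0.68 ± 0.17) and Stat2 (-0.53 ± 0.14) were likewise lower in every Sham-LVH library. Trim25, a ubiquitin ligase that acts on the RNA sensor Ddx58, was at 16.1, 12.8, 12.6 and 13.7 CPM in Sham-LVH, against 21.4, 17.2, 16.9 and 15.3 CPM in Sedentary, with overlap, and its adjusted p was 0.161 without Sedentary replicate 1. Xaf1 (-0.43) and Oas2 (-0.82) passed in 1 of the 8 fits that left out a library each, and 4 of the 7 calls held in every setting. The count of 6 lower genes was 3 without Sedentary replicate 1 or without Sham-LVH replicate 2, 3 or 4, and the count of 1 higher gene was 2 without Sedentary replicate 2 or Sham-LVH replicate 1. Of the macrophage markers, 5 of 16 were higher in Sham-LVH than in Sedentary, with sums of 202 ± 37 CPM in Sham-LVH and 141 ± 9.92 CPM in Sedentary. Of 5 erythrocyte markers 4 were higher, with sums of 556 ± 132 CPM in Sham-LVH and 322 ± 58.5 CPM in Sedentary, and 3 of 10 endothelial markers were lower, with sums of 634 ± 30.1 CPM in Sham-LVH and 725 ± 49.9 CPM in Sedentary. The part of these markers was not tested.

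In Sham-HF, 6 genes were lower than in Sedentary, where 1.05% of all genes were, and the other 33 did not pass, with 21 of the 39, or 53.8%, at an unadjusted p under 0.05, against 19.2% of all genes. In 16 genes every Sham-HF library was below every Sedentary library, a pattern of 6.06% of genes, and in 0 above, against 7.51%. Tap1 was at 3.71, 4.01, 3.85 and 2.75 CPM in Sham-HF, against 5.17, 8.13, 7.31 and 6.48 CPM in Sedentary, and the log2 fold change was -0.90 ± 0.17 (edgeR adjusted p = 0.0167). Stat2 was at 5.52, 5.54, 4.69 and 6.16 CPM in Sham-HF, against 9.47, 9.66, 8.23 and 8.55 CPM in Sedentary, with -0.72 ± 0.14. For both the groups stood well apart. Xaf1 was at 1.95, 2.09, 3.25 and 2.93 CPM in Sham-HF, against 4.18, 4.33, 3.68 and 4.22 CPM in Sedentary (-0.70 ± 0.16). Gbp7 was at 8.67, 10.5, 11.2 and 9.76 CPM in Sham-HF, against 16, 16, 18 and 11.7 CPM in Sedentary (-0.62 ± 0.14), and Gbp3 (-0.72) and Samhd1 (-0.37) were lower as well. None of the 6 passed in all 8 fits that left out a library, and the count of 6 became 1 without Sedentary replicate 3, 2 without Sedentary replicate 2 or Sham-HF replicate 1 or 3, and 3 without Sedentary replicate 1. Macrophage markers did not differ by the test, with 0 of 16 called and sums of 141 ± 24.2 CPM in Sham-HF and 141 ± 9.92 CPM in Sedentary.

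Per length of exon, the members differed widely in level. B2m was highest, at 122 CPM per kb in TAC-LVH and 74 in Sham-LVH, followed by Ifi27l2a, at 22.9 CPM per kb in TAC-LVH and 15.2 in Sham-LVH. Zbp1 and Mx1 were lowest, Zbp1 at 0.243 CPM per kb in TAC-LVH and 0.104 in Sham-LVH, and Mx1 at 0.248 CPM per kb in TAC-LVH and 0.0552 in Sham-LVH.

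The genes upstream of the list were also measured. Of 15 interferon ligand genes 0 had enough counts to test. Ifnb1 had 0 counts in all 24 libraries, so that it was not detectable at this depth, and Ifng had 1 count in 1 library. The ligands with the most counts were Ifnk, with 23 counts over 11 libraries, and Ifnz, with 15 counts over 8 libraries. Among the receptor genes, Ifnar1 was at 22.2, 20.3, 17.8 and 21.8 CPM in TAC-LVH, against 16.2, 14.5, 13.4 and 15.6 CPM in Sham-LVH, with a log2 fold change of 0.47 ± 0.10 and no overlap. Ifnar2 (0.30 ± 0.09) and the interferon gamma receptor chain Ifngr1 (0.72 ± 0.13) rose too at 2 weeks, and Il10rb, a chain of the lambda interferon receptor, fell by 0.34. At 8 weeks Ifngr1 (0.75 ± 0.10) and the signal transducer Stat3 (0.34 ± 0.09) rose, and Ifnar1 and Ifnar2 had log2 estimates of 0.22 and 0.24 that did not pass.

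Of 14 sensing and induction genes, 7 rose and 1 fell at 2 weeks, where 17.1% of all genes rose and 16.1% fell. At 8 weeks 5 rose and 1 fell, where 14.9% of all genes rose and 14.7% fell. Tlr9, an endosomal DNA receptor, rose by 1.896 and Irf8, a myeloid factor, by 1.04 at 2 weeks, and Tlr7, an endosomal RNA receptor, rose by 0.72 at 8 weeks. Mavs, the adaptor of Ddx58 and Ifih1, was the gene that fell, by 0.65 at 2 weeks and by 0.36 at 8 weeks. Of 8 negative regulators tested, 2 rose and 1 fell at 2 weeks, and 1 rose and 1 fell at 8 weeks, close to the shares over all genes given above, so that the list itself did not stand out. Socs3, an inhibitor of receptor kinases, rose by 1.05 at 2 weeks, the phosphatase Ptpn6 rose by 0.74 and 0.64 at the 2 times, and Nlrx1, a mitochondrial brake on sensing, fell by 0.57 and by 0.42.

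Of other interferon-induced genes, 23 of 44 tested rose and 0 fell at 2 weeks, where 17.1% of all genes rose and 16.1% fell. At 8 weeks 13 of 41 rose, 0 fell and the rest did not pass, where 14.9% of all genes rose and 14.7% fell. Lgals3bp rose by 0.84 and 0.76 at the 2 times, Slfn2 by 0.78 and 0.82, and Trim30a, a regulator of inflammatory signalling, by 0.74 and 0.65; Ifitm3, which blocks viral entry, rose by 0.69 at 8 weeks. Of 18 other MHC class I genes 5 rose and 1 fell at 2 weeks, and 7 rose at 8 weeks, beside the same shares over all genes. The classical heavy chains H2-K1 and H2-D1 rose by 0.67 and 0.62 at 2 weeks and by 0.81 and 0.56 at 8 weeks, and Psmb10, the remaining immunoproteasome subunit, rose by 0.53 and 0.83. Psme1, of the proteasome activator, fell by 0.54 at 2 weeks. In Running against Sedentary 0 genes of these lists passed (edgeR).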

How the data were processed

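The authors deposited 1 table of estimated counts per gene for the 24 heart libraries, written as whole numbers. The submitters' processing notes name FastQC, Salmon and the build mm9. No version, annotation or strand setting is given in the sources used here. Of the 43432 identifiers, 970 had no symbol in GENCODE vM21, from which symbols were taken; 1 row named no gene and held 0 counts.

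Each comparison was fitted in edgeR 4.0.16 (R 4.3.3): filterByExpr, TMM factors, robust quasi-likelihood fit, Benjamini-Hochberg adjustment over all genes tested, threshold 0.05. The TAC and running comparisons used their own 8 libraries; differences of effects and comparisons of control groups used all 24. Standard errors are the log2 fold change divided by the square root of the F statistic. Genes were called non-overlapping on CPM. DESeq2 1.42.0, RLE factors, no factors, no mitochondrial genes, no filter, the other choice of libraries, a replicate block and leaving out each library were the alternatives. Some of the fits were also run on counts simulated from the levels and dispersions of these libraries, which cannot show whether that model holds.

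The members and lists were chosen with earlier results of these data known. Values per library are given for at most 6 genes with the smallest p per comparison, fewer for differences and control groups, and for Irf1, Irf7, Irf9 and Stat2. Promoter windows are from RefSeq (GRCm38.p6). Shared 31-base words and overlaps were found in GENCODE vM21. No 2 libraries of a group agreed within sampling noise (chi-square per degree of freedom of at least 7). Coordinates of the deposited build were not used. Precision rests on the counts per gene given in the text. For the receptor and signalling list, single genes are given without list counts, since 1 item is not reported here.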

Additional observations from a re-analysis of the deposited data

Results flagged for a closer look

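In groups of 4 libraries, the gap between an extreme library and its nearest neighbour was set against the range of the group. It passed Dixon's critical value in 10 of 234 combinations of gene and group, where chance at 1 in 20 would give 11.7.

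Of these, 5 were in Running replicate 4, the highest of its group for Rsad2 (12.7 CPM, the others at 7.08 to 7.79), Gbp7 (19.9 CPM, the others at 13.5 to 14.5), Isg15 (1.47 CPM, the others at 0.629 to 0.68), Ifi44 (4.4 CPM, the others at 1.49 to 1.95) and Rtp4 (3.04 CPM, the others at 2 to 2.07). Running replicate 2 was far below its group for Tap1, at 4.84 CPM with the others at 6.65 to 6.77. Sedentary replicate 2 was far above its group for Samhd1, at 17.2 CPM with the others at 16 to 16.1, and for Rtp4, at 3.04 CPM with the others at 2.15 to 2.24. Sham-HF replicate 3 was lowest for Trim25, at 11.6 CPM with the others at 14 to 14.3. TAC-HF replicate 3 was highest for B2m, at 141 CPM with the others at 90.7 to 96.4.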

How the results depend on the processing

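No value changed sign among the called results. At 2 weeks 24 of 28 calls, and at 8 weeks 13 of 27, passed in each of 7 other settings and each fit without 1 library. Leaving out 1 library gave 24 to 31 genes at 2 weeks, 17 to 27 at 8 weeks, 0 to 1 for the 8-week minus 2-week difference, 3 to 14 and 3 to 12 for the 2-week and 8-week differences from running, 4 to 5 lower in Sham-HF than Sham-LVH, 1 to 2 higher and 3 to 5 lower in Sham-LVH than Sedentary, and 1 to 5 lower in Sham-HF than Sedentary.

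With unscaled library totals, the middle of all genes moved to a log2 value of 0.413 at 2 weeks and 0.335 at 8 weeks, with 38 and 35 members called. Over all genes, 2428 higher and 2289 lower became 6995 and 614 at 2 weeks, and 2032 and 2000 became 6075 and 568 at 8 weeks. The TAC effects then exceeded running in 31 and 29 members, where 5101 and 3338 of 14735 genes passed upward. In this setting 3 members were lower in each sham group than in Sedentary. With no filter, the 2-week difference from running held 5 members, where 1266 of 27444 genes passed upward. Sham-LVH against Sedentary then held 2 higher and 3 lower members. RLE factors, DESeq2 and the replicate block also gave 2 higher. With only their own libraries, 4 members passed in the 8-week difference from running, where 818 of 14252 genes passed upward. In the same setting 10 members were lower in Sham-HF than Sedentary. For the sham groups against Sedentary, these counts stand without a share over all genes, so that nothing about the list follows from them. The causes were not tested.

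Same-numbered libraries did not deviate together in every pair, so the numbers were not used as pairs in the main fits. This does not exclude pairing. Between Running and Sedentary, deviations from the group mean correlated at 0.457 for replicate 1 and 0.0477 for replicate 4. With a replicate block, 32 members rose at 2 weeks, where 2683 of 14224 genes did. At 8 weeks 22 members rose, where 1769 of 13621 genes did. With running 0 members rose, where 25 genes were higher and 22 lower. In Sham-HF 11 members were lower than in Sedentary, a count given without a share over all genes. Ifit3b did not pass in Sham-HF against Sham-LVH (edgeR adjusted p = 0.0527). For the TAC difference over all genes, 106 higher calls became 622 with the block, 403 by DESeq2 and 1 to 322 without 1 library.

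Low counts limit Mx1, Zbp1, Isg15 and Dhx58 most.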
